A study of Mus musculus with 24 samples.

Results

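A set of 10 genes of the circadian clock were followed through 24 mouse aortas. They were taken by symbol from a count table of 41128 genes, and all 10 were found there and passed the filter on low counts. Arntl (also called Bmal1), Clock and Npas2 form the activator arm, 3 genes. Dbp, Tef, Hlf, Per1, Per2, Per3 and Nr1d1 form the output arm, 7 genes. The genes were chosen by their levels in the genotype and treatment groups, with results of these libraries already known. Their values in those comparisons are therefore descriptions, and the comparison of males with females is the one contrast the choice did not use.

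RNA was sequenced from 1 aorta library per labelled sample, in 8 groups of 3. The mice were 5 months old, of the line B6,129S6-Ppp3cbtm1Jmk/J, and were either Ppp3cb knockouts (KO) or wildtypes (WT); Ppp3cb encodes a catalytic subunit of the phosphatase calcineurin. Mice of each genotype and sex received angiotensin II (AngII), a vasoconstrictor peptide hormone, at 500 ng/kg/min for 4 weeks from an implanted minipump, or were labelled control. The labels do not say whether controls carried a pump, in which cells Ppp3cb was lost, or at what time of day the aortas were taken, and they give a light/dark cycle with equal periods. Because collection time is not in the labels, time of day and group cannot be told apart for these genes.

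In the mammalian clock, Arntl protein pairs with Clock or Npas2 and binds E-box sequences to switch on the Per genes, Nr1d1, Dbp and Tef. Per proteins, with the Cry proteins, then repress that pair, while Nr1d1 (Rev-erb alpha) represses Arntl through ROR elements. As a result Arntl and Npas2 messenger RNA peak in a phase of the day roughly opposite to that of Dbp and Nr1d1. Dbp, Tef and Hlf are PAR bZIP transcription factors that bind D-box sequences. Vascular smooth muscle and endothelium both hold such a clock.

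In the mm10 annotation Arntl lies at chr7:113207465-113314126 (+), Clock at chr5:76209868-76304792 (-) and Npas2 at chr1:39193731-39363236 (+). Dbp lies at chr7:45705088-45710203 (+), Tef at chr15:81802421-81826863 (+) and Hlf at chr11:90336536-90390895 (-). Per1 lies at chr11:69095217-69109960 (+), Per2 at chr1:91415982-91459324 (-), Per3 at chr4:151003652-151044665 (-) and Nr1d1 at chr11:98767932-98775333 (-). The start regions of the genes carry these elements to different extents. RefSeq windows (mouse GRCm38.p6, 250 bases before to 50 after a start) were found for 9 of the 10 genes, 14 windows in all, and Per2 had none. The E-box CACGTG was present in 7.15% of all 32851 windows, in Per1 and in both Tef windows; it reads the same on both strands. The D-box, searched as TTATGTAA or TTACGTAA on both strands, was present in 1.06% of windows and occurred in Per3 at 2 places. The ROR element, searched as ANTAGGTCA or ANTGGGTCA on both strands, was present in 1.45% of windows and in 1 of the 2 Arntl windows. The variant E-box CACGTT, on both strands, was in 4.68% of windows and among these genes in Nr1d1. A match describes the letters and does not show binding. The Per1, Tef and Per3 stretches below are the 250 bases before the start, printed 5′ to 3′ on the gene's strand with the matched element in capitals, to show an E-box gene of each output class and the pair of D-boxes. Per1 is at chr11:69098699-69098948 (+), Tef at chr15:81802423-81802672 (+) and Per3 at chr4:151044666-151044915 (-).
Per1: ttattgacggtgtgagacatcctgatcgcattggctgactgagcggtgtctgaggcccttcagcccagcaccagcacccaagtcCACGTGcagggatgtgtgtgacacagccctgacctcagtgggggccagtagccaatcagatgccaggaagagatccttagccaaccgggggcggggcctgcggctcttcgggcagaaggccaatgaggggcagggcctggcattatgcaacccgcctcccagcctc
Tef: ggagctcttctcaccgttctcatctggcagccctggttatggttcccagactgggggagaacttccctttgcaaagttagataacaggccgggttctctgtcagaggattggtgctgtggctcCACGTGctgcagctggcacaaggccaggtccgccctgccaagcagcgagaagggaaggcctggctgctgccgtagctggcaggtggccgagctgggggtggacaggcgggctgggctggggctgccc
Per3: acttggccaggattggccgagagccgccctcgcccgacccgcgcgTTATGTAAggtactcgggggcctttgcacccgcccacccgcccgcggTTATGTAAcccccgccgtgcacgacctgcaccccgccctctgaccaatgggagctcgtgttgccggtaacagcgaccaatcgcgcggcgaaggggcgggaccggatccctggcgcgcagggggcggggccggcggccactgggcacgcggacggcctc
For Arntl, the 29 bases at chr7:113207529-113207557 (+) surround the ROR element, which lies after the start, with the element in capitals.
Arntl: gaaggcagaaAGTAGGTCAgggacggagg

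Libraries held 1523328 to 6352365 counts (median 3835993). The 3 KO control females were the shallowest, with 1523328 to 2401264 counts, and carried 1002 to 1992 CPM (counts scaled to a common library size) of protein-coding counts on olfactory and vomeronasal receptor genes, against 111 to 1073 CPM in the other libraries. Leading values of the comparisons that use them are also given without them. Ppp3cb itself was lower in KO aortas, at 11.2 CPM in the lowest, 20.2 in the median and 30.3 in the highest of 12, against 28.1, 39.5 and 69.4 CPM in 12 WT aortas, and 10 of the 12 KO values lay below every WT value. Markers of smooth muscle, the main cell type of the aortic wall, summed to between 6673 and 20590 CPM over 6 genes. In bulk RNA, fewer cells of a type and less RNA per cell cannot be told apart.

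Per kilobase of exon, Nr1d1 was the most abundant of the genes, at 63.5 ± 20.5 CPM per kb over all libraries (mean ± SD, n = 24). Per1 (22.0 ± 12.1), Dbp (21.2 ± 10.8), Per2 (17.1 ± 6.53) and Tef (15.5 ± 6.18) followed in CPM per kb and overlapped within 1 SD. Clock (8.60 ± 2.10), Per3 (7.46 ± 2.84) and Hlf (7.15 ± 4.15) were next and also overlapped. Npas2, at 4.27 ± 2.99 CPM per kb, and Arntl, at 1.99 ± 1.44, were lowest. Arntl therefore rested on few reads, with 1 to 161 counts per library (median 43), while Nr1d1 had 112 to 1302. Npas2 had no count in KO control female replicate 1, where 3 counts would have been 1.91 CPM. Clock varied little, with a smaller SD of log2 CPM in 10.0% of all genes tested, whereas 96.0% varied less than Arntl and 97.5% less than Npas2.

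**Figure D1:**
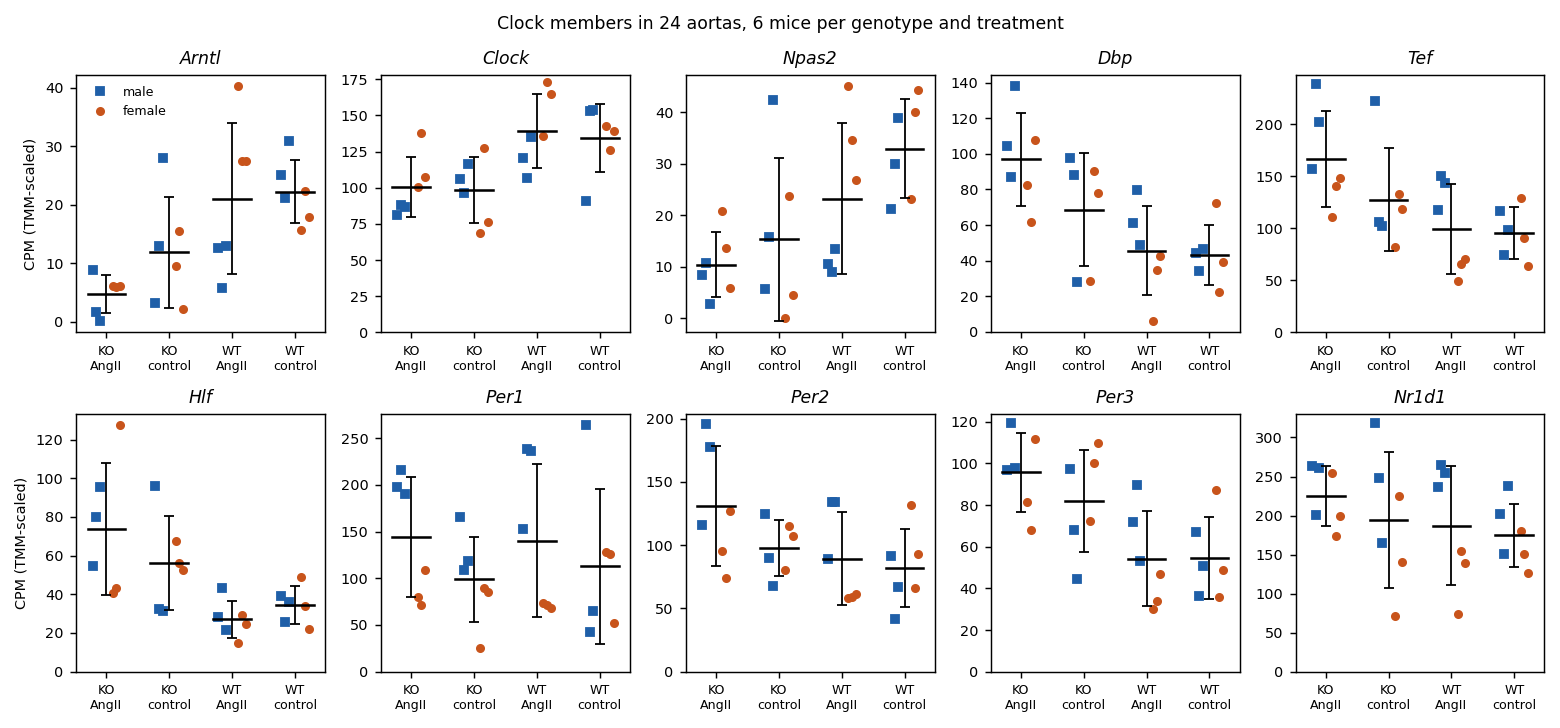
Each panel shows 1 clock gene, with TMM-scaled CPM on the y axis and genotype and treatment on the x axis. Squares are males, circles are females, bars are the mean of 6 libraries and whiskers 1 SD. Arntl was lowest and Hlf highest in KO AngII aortas (means 4.80 and 73.6 CPM).

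Between genotypes under AngII, the activators were lower and the output genes higher in KO aortas. Arntl stood at 8.8, 1.65 and 0.218 CPM in KO AngII males and at 6.07, 5.91 and 6.12 CPM in KO AngII females. In WT AngII mice it stood at 12.6, 5.75 and 12.9 CPM in males and at 40.3, 27.4 and 27.6 CPM in females. Within each sex the Arntl values separated in females and overlapped in males, where WT replicate 2 lay below KO replicate 1. How many of all genes separate KO from WT AngII mice within a sex was not counted, for Arntl here or for Hlf below. The log2 fold change of Arntl was -2.04 ± 0.49 (SE), with an adjusted p of 0.0622 by edgeR's quasi-likelihood test. Clock, the standard partner of Arntl, ran from 81.4 over a median of 94.1 to 138 CPM in KO AngII mice, against 107, 135 and 173 CPM in WT AngII mice. Its log2 fold change was -0.48 ± 0.18 (edgeR adjusted p = 0.416), and 4 of 6 KO values lay below every WT value. Npas2, a paralog of Clock, ran from 2.84 over 9.59 to 20.9 CPM in KO AngII mice, against 9.04, 20.2 and 45.03 CPM in WT AngII mice, a log2 fold change of -0.99 ± 0.47 (edgeR adjusted p = 0.633). No activator passed the threshold of adjusted p 0.05.

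Among the PAR bZIP outputs, Hlf showed the widest gap. Its values were 54.6, 79.7 and 95.7 CPM in KO AngII males and 40.9, 43.2 and 128 CPM in KO AngII females. In WT AngII mice they were 28.2, 43.3 and 21.6 CPM in males and 15.01, 29.5 and 24.6 CPM in females. Hlf separated within each sex, and over both sexes 4 of 6 KO values lay above every WT value. The log2 fold change was 1.46 ± 0.30 (edgeR adjusted p = 0.0143). Dbp, which shares the D-box target with Hlf, ran from 61.7 over 95.8 to 138 CPM in KO AngII mice, against 6.25, 45.6 and 79.7 CPM in WT AngII mice. Of 6 KO values of Dbp, 5 lay above every WT value, and the log2 fold change was 1.20 ± 0.34 (edgeR adjusted p = 0.163). Tef ran from 111 over 152 to 238 CPM in KO AngII mice, against 49.0, 94.1 and 150 CPM in WT AngII mice, with a log2 fold change of 0.82 ± 0.21 (edgeR adjusted p = 0.0817).

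The Per genes, which encode repressors of the activator pair, were less uniform. Per3 ran from 67.9 over 97.2 to 119 CPM in KO AngII mice, against 30.02, 50.1 and 89.6 CPM in WT AngII mice, with a log2 fold change of 0.89 ± 0.23 (edgeR adjusted p = 0.0819). Per2 ran from 73.8 over 122 to 196 CPM in KO AngII mice, against 58.3, 75.3 and 134 CPM in WT AngII mice, with a log2 fold change of 0.59 ± 0.21 (edgeR adjusted p = 0.401). Per1 ranged over 71.6 to 216 CPM in KO AngII mice and over 67.7 to 238 CPM in WT AngII mice, and its log2 fold change was 0.12 ± 0.31. Nr1d1, the repressor of Arntl, ranged over 174 to 263 CPM in KO AngII mice and over 73.8 to 265 CPM in WT AngII mice, with a log2 fold change of 0.36 ± 0.22. Values of Per1 and Nr1d1 thus overlapped widely between genotypes.

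Of the 10 genes, 1 (Hlf) was called between genotypes under AngII, beside 58 of all 16316 genes tested, 0.355%, of which 50 were higher in KO, 0.306%. At an unadjusted p under 0.05 the members numbered 8, beside 7.75% of all genes. All 3 activators were lower and all 7 outputs higher. The median log2 fold change was -0.99 over the activators and 0.82 over the outputs, beside a median of 0.01 and a middle range from -0.52 (10th percentile) to 1.21 (90th) over all genes tested. No member separated KO AngII from WT AngII completely, and 133 of all genes did, 0.815%. With 1 library less, the number of clock genes called was 0 to 2. It was 0, with Hlf lost, when KO AngII female replicate 3 or either of WT AngII male replicates 1 and 3 was omitted. Arntl joined Hlf when any 1 of the 6 KO controls, KO AngII male replicate 1, WT AngII male replicate 2 or either of WT control male replicates 1 and 2 was omitted. DESeq2 called 5 of the 10 (Arntl lower, Dbp, Tef, Hlf and Per3 higher), and without the KO control females edgeR called Arntl (-2.04) and Hlf (1.48).

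Within each sex the pattern kept its direction except in 2 genes. In females alone the log2 fold change of KO over WT under AngII was -2.37 for Arntl, 1.63 for Dbp, 1.64 for Hlf and 1.26 for Per3. In males alone it was -1.69 for Arntl, 0.81 for Dbp, 1.32 for Hlf and 0.56 for Per3. Per1 and Nr1d1 were higher in KO females (0.32 and 0.80) and close to 0 in males (-0.04 for both). In edgeR fits of 1 sex none of the 10 was called, and the members with an unadjusted p under 0.05 numbered 7 in females and 3 in males; DESeq2 was not run within a sex.

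Tcap, a sarcomere protein on the list of skeletal muscle markers, was also higher in KO mice under AngII. The sum over the 7 measured genes of the list was 66.0 to 175 CPM in KO AngII mice (median 92.4), against 16.8 to 64.1 CPM in WT AngII mice (median 37.5), and Ckm had no count in any KO control female. Of 4 such markers tested, 4 had positive log2 fold changes, and 1, Tcap, passed at either an unadjusted or an adjusted threshold (log2 fold change 1.71 ± 0.31, edgeR adjusted p = 0.00425). Tcap made up most of the sum, at a median of 83.7 CPM in KO AngII mice against 32.8 CPM in WT AngII mice. Ckm, Mylpf and Myh4 were too scarce to test. Ckm and Mylpf averaged 0.517 and 0.279 CPM in KO AngII mice, against 0.920 and 0.807 CPM in WT AngII mice. Myh4 went the other way, at 1.39 CPM in KO AngII mice against 0.175 CPM in WT AngII mice. The part of muscle RNA in the clock gene values was not tested.

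**Figure D2:**
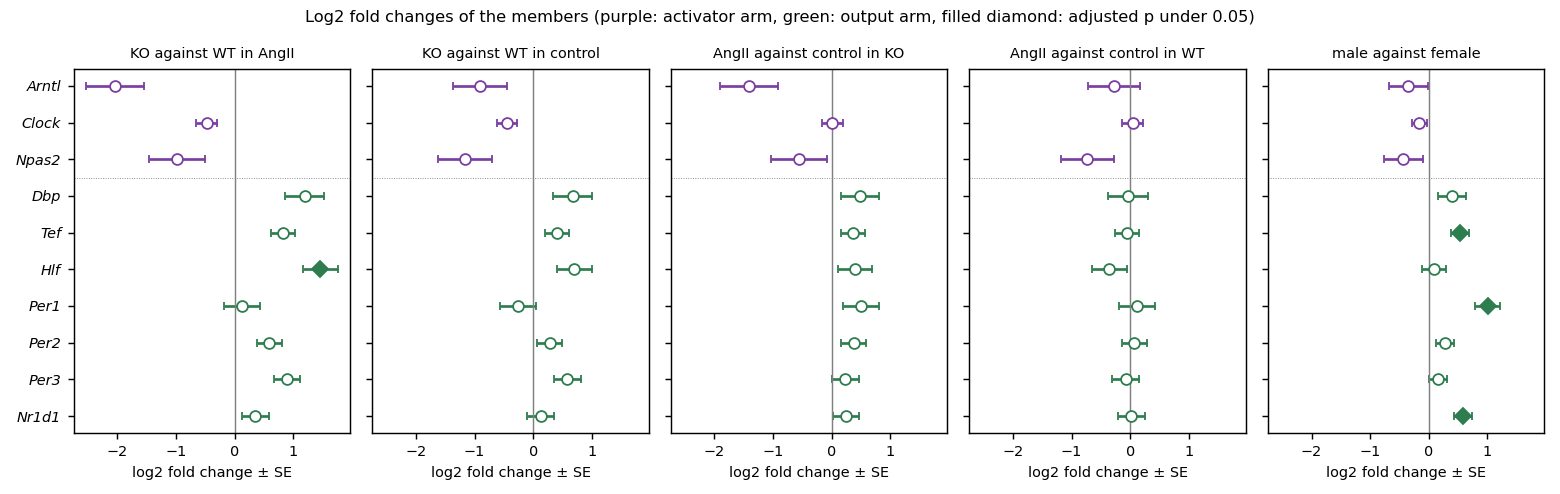
Each panel is 1 comparison, with log2 fold change and its SE on the x axis and the clock genes on the y axis; purple marks the activator arm, green the output arm and filled diamonds an adjusted p under 0.05. Between KO and WT under AngII, activators lie left of 0 and outputs right of it, from -2.04 for Arntl to 1.46 for Hlf.

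Between genotypes in control mice the log2 fold changes, KO over WT, were again negative for the 3 activators and positive for Hlf, Dbp, Per3, Tef and Per2, and none was called. Arntl stood at 3.17, 13.0 and 27.9 CPM in KO control males and at 9.55, 15.5 and 2.22 CPM in KO control females. In WT controls it stood at 25.1, 21.2 and 31.0 CPM in males and at 15.8, 22.4 and 17.9 CPM in females. KO control male replicate 3 overlapped the WT range, and the other 5 KO values lay below every WT value, with a log2 fold change of -0.91 ± 0.46 (edgeR adjusted p = 0.530). Npas2 ran from 0 over 10.7 to 42.3 CPM in KO controls, against 21.3, 34.4 and 44.4 CPM in WT controls (-1.17 ± 0.47). The log2 fold change was -0.45 ± 0.18 for Clock, 0.70 ± 0.30 for Hlf, 0.68 ± 0.34 for Dbp, 0.58 ± 0.23 for Per3 and 0.40 ± 0.21 for Tef. Per2 (0.28 ± 0.22), Nr1d1 (0.13 ± 0.22) and Per1 (-0.26 ± 0.31) were closer to 0. The sign of Per1 rested on single libraries: it was 0.33 without WT control male replicate 1 and 0.054 without the KO control females. With 1 library left out Nr1d1 ran from -0.16, without KO control female replicate 2, to 0.29, and it was also below 0 when replicate 2 of the WT control males was left out, or replicate 1 of the KO control males. None of the 10 genes was called by edgeR, beside 36 of all genes, 0.221%; at an unadjusted p under 0.05 they numbered 4 (Clock and Npas2 lower, Hlf and Per3 higher), beside 9.73% of all genes, and DESeq2 called 0. Without KO control female replicate 2, Clock and Npas2 were called lower. In males alone, a comparison free of the KO control females, the log2 fold change was -0.82 for Arntl, -0.52 for Npas2, 0.75 for Dbp and 0.63 for Hlf. The KO side carries the receptor counts given above, and their part in these values was not tested. Of the 8 macrophage markers all had positive log2 fold changes, KO over WT, with a median of 1.42, 7 with an unadjusted p under 0.05 and none called by edgeR. They summed to 81.7 to 518 CPM in KO controls (median 135), against 69.6 to 102 CPM in WT controls (median 84.8). Skeletal muscle markers summed to a median of 102 CPM in KO controls, against 35.8 CPM in WT controls. Tcap made up most of that sum, at a median of 75.1 CPM in KO controls against 28.1 CPM in WT controls. Of 4 such markers tested, 3 had positive log2 fold changes and 1 a negative one, and none was called by edgeR. All 8 measured glucocorticoid-responsive genes had negative log2 fold changes, with a median of -0.58, 2 with an unadjusted p under 0.05 and none called by edgeR. These 8 summed to 155 to 280 CPM in the KO control females, against 264 to 635 CPM in all other libraries. All 7 brown adipocyte markers tested were lower in KO, with median log2 fold changes of -0.77 in controls and -0.73 under AngII. All 6 smooth muscle markers were lower in KO controls (median -0.30), while under AngII 4 were lower and 2 higher. None of these was called by edgeR. No log2 fold change of these lists was computed here without the KO control females. The part of these lists in the clock gene values was not tested either. The genotype comparisons under AngII and in controls compare separate libraries, while each genotype's AngII and control libraries also enter the AngII comparisons.

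AngII against control gave no called clock gene in either genotype. In KO mice Arntl ran from 0.218 over 5.99 to 8.80 CPM under AngII, against 2.22, 11.3 and 27.9 CPM in controls, a log2 fold change of -1.40 ± 0.50 (edgeR adjusted p = 0.466). No KO AngII value of Arntl exceeded the control median, and 2 of 6 lay below every control. All 7 outputs had positive log2 fold changes in KO mice, from 0.23 ± 0.23 for Per3 to 0.50 ± 0.31 for Per1, and none passed the threshold. Beside this, edgeR called 0 of all genes in KO mice (0%), 7.71% had an unadjusted p under 0.05, which included Arntl as the only one of the 10, and DESeq2 called 20 genes and none of the 10. In KO males alone, without the KO control females, the Arntl value was -2.19, and in females alone -0.63. All 6 neural and Schwann markers tested had negative log2 fold changes in KO mice (median -2.65), 4 with an unadjusted p under 0.05. All 7 endothelium markers were negative (median -0.42) and all 6 smooth muscle markers positive (median 0.21), each list with 1 such p. None of these markers was called by edgeR, and their part in the clock gene values was not tested.

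In WT mice the AngII response averaged near 0 in every output gene, from -0.36 ± 0.30 for Hlf to 0.12 ± 0.31 for Per1. The log2 changes in the sexes had opposite signs for 8 of the 10 genes. Arntl was lower in WT AngII males (12.6, 5.75 and 12.9 CPM) than in WT control males (25.1, 21.2 and 31.0 CPM), and the groups did not overlap. In females it was higher under AngII (40.3, 27.4 and 27.6 CPM) than in controls (15.8, 22.4 and 17.9 CPM), again without overlap. Per2, an output gene, went the other way, with 88.7, 134 and 134 CPM in WT AngII males against 91.7, 41.5 and 67.1 CPM in WT control males, and 58.3, 58.9 and 61.8 CPM in WT AngII females against 132, 65.9 and 93.0 CPM in WT control females. In females the Per2 groups did not overlap, and in males WT control replicate 1 lay above WT AngII replicate 1. For Arntl and Per2 alike, the share of all genes that separates AngII from control within a sex was not counted.

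Each sex's log2 change in WT mice was -1.33 for Arntl, 0.81 for Per2, 0.58 for Dbp and 0.48 for Tef in males alone. In females alone it was 0.73 for Arntl, -0.72 for Per2, -0.72 for Dbp and -0.65 for Tef. The difference between the responses, males minus females, was -2.07 ± 0.90 for Arntl and 1.53 ± 0.43 for Per2 in edgeR's fit, with unadjusted p of 0.0292 and 0.00125 and adjusted p near 1 for both. Of the 10 genes in WT mice it was negative for the 3 activators and positive for the 7 outputs. The same difference in KO mice was negative for the 3 activators (Arntl -1.57, Npas2 -1.94, Clock -0.64) and positive for every output except Nr1d1 (-0.53). None of the 10 was called for this difference in either genotype. AngII was called for 0 of the 10 genes in WT mice, beside 34 of all genes, 0.208%. None had an unadjusted p under 0.05, beside 6.71% of all genes, and DESeq2 also called none of them. All 7 endothelium markers tested had negative log2 fold changes in WT mice (median -0.71), 6 with an unadjusted p under 0.05. All 6 neural and Schwann markers were negative (median -1.70, 2 such p) and all 8 macrophage markers positive (median 0.69, 4 such p). None of these markers was called by edgeR, and their part in the clock gene values was not tested.

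No clock gene's AngII response differed between genotypes past the threshold. The difference, KO response minus WT response, was -1.13 ± 0.67 for Arntl and 0.76 ± 0.42 for Hlf on the log2 scale, and 0.18 ± 0.66 for Npas2. Without the KO control females these were -0.88, 0.69 and -0.046. With 1 library left out Arntl ran from -1.95, without KO AngII male replicate 1, to -0.69, without KO control male replicate 3. Hlf ran from 0.42, without KO AngII female replicate 3, to 1.14, without KO control male replicate 1, and Npas2 from -0.084, without KO control female replicate 1, to 1.25, without KO control female replicate 2. Over all genes edgeR and DESeq2 called 0 here (0%), with 4.03% at an unadjusted p under 0.05, none of the 10 among them.

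The balance of the arms was summarised per aorta as the log2 CPM of Dbp minus that of Arntl. It ran from 3.27 over a median of 3.84 to 7.49 in KO AngII mice and from 0.01 over 2.61 to 4.83 in KO controls. In WT mice it ran from -2.58 over 1.24 to 3.67 under AngII and from 0.00 over 0.74 to 2.16 in controls. Every KO AngII aorta lay above every WT control, a pair of groups that differs in both genotype and treatment. KO AngII aortas overlapped both KO controls and WT AngII aortas. The balance uses genes chosen by their levels in these groups, so it is a description, and other gene pairs were not compared. WT AngII aortas spanned the widest range, with males at 1.87 to 3.67 and females at -2.58 to 0.61.

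**Figure D3:**
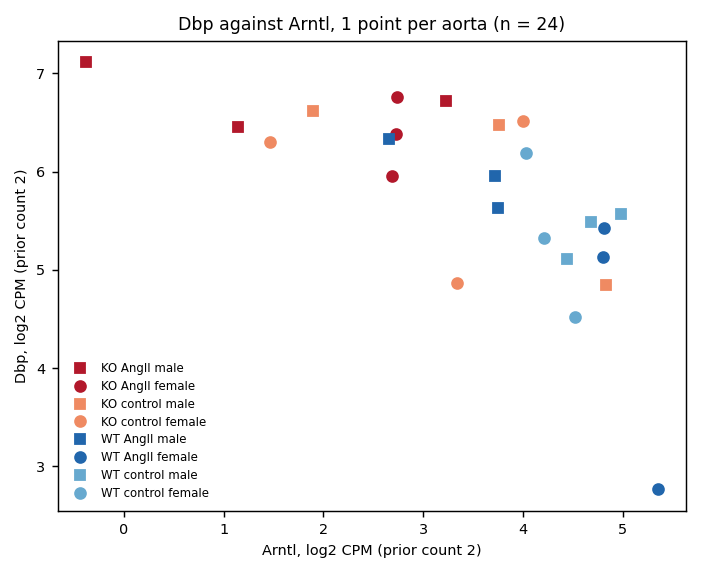
Each point is 1 aorta, with log2 CPM of Arntl on the x axis and of Dbp on the y axis; red tones are KO, blue tones WT, darker tones AngII, squares males and circles females. KO AngII points sit at low Arntl and high Dbp, and WT AngII female replicate 1 sits alone at the lower right with 40.3 CPM Arntl and 6.25 CPM Dbp.

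Across the 24 libraries Arntl and Dbp ran opposite to each other (Pearson r = -0.698, Spearman rho = -0.738, n = 24), a description of libraries that share a TMM scaling and differ in depth. Without the 2 libraries farthest in Arntl r was -0.681. It was -0.578 in KO, -0.692 in WT, -0.824 in males and -0.675 in females. After each group's mean was removed r was -0.394, and without the KO control females it was -0.746. Arntl ran in the same opposite way to Per3 (r = -0.762), Tef (-0.762), Per2 (-0.745) and Hlf (-0.735), and less so to Nr1d1 (-0.384) and Per1 (-0.336).

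Within the output arm the 21 pairs had a median r of 0.703 (0.232 to 0.850), and a median of 0.584 for deviations from group means. Within the activator arm the 3 pairs had r of 0.621 to 0.750, and a median of 0.435 for deviations. Between the arms the 21 pairs had a median of -0.477 (-0.762 to 0.02), and of -0.141 for deviations. Without the 3 KO control females the median between the arms was -0.716 (-0.835 to -0.460), within the output arm 0.741 and within the activator arm 0.641. The weakest pairs moved most: r of Npas2 with Nr1d1 was -0.695 without those libraries and 0.02 with them, and r of Npas2 with Per1 was -0.604 without and 0.02 with them. Npas2 had no count in KO control female replicate 1, so its log2 CPM there was set by the prior count. Over all 24 libraries Spearman rho was -0.427 with Nr1d1 and -0.367 with Per1. Without the 2 libraries farthest in Npas2, r was -0.526 and -0.488.

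**Figure D4:**
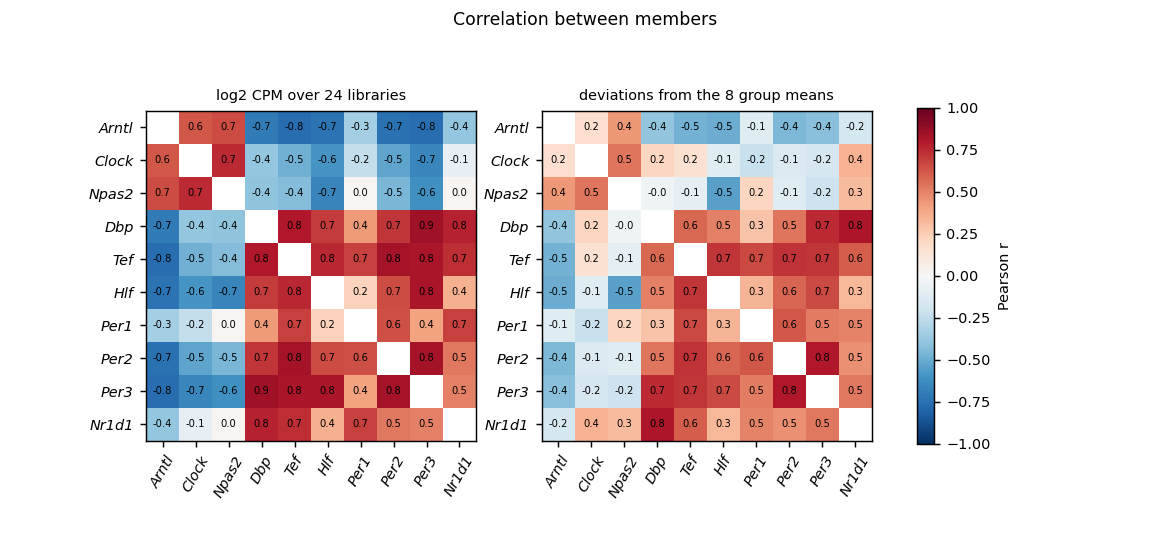
Both axes list the 10 clock genes and colour gives Pearson r, on the left for log2 CPM over 24 libraries and on the right for deviations from the 8 group means. The output block stays positive in both, with medians of 0.703 and 0.584, while the block between arms fades, with medians of -0.477 and -0.141.

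Male against female was the contrast that the choice of genes had not used. Per1, Nr1d1 and Tef were higher in males, and no activator was called. Per1 ran from 42.9 over a median of 178 to 264 CPM in 12 males, against 25.5, 77.2 and 128 CPM in 12 females. Of the 12 male values, 8 lay above every female value, and the other 4 were WT controls (42.9 and 64.7 CPM) and KO controls (109 and 119 CPM). The log2 fold change of Per1 was 1.00 ± 0.22 (edgeR adjusted p = 0.00609). Nr1d1 ran from 151 over 243 to 318 CPM in males, against 71.3, 153 and 254 CPM in females, and 11 of 12 males exceeded the female median. Its log2 fold change was 0.59 ± 0.16 (edgeR adjusted p = 0.0243). Tef ran from 74.0 over 130 to 238 CPM in males, against 49.0, 101 and 148 CPM in females, with 10 of 12 males above the female median and a log2 fold change of 0.53 ± 0.15 (edgeR adjusted p = 0.0289). Mean Tef was 96.3 CPM in WT control males against 94.7 CPM in WT control females, and 137 against 61.7 CPM under AngII. In KO mice it was 144 against 111 CPM in controls and 199 against 133 CPM under AngII. Ranges of Nr1d1 overlapped between the sexes in every group except WT AngII mice.

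The other outputs had smaller differences between the sexes, 0.40 ± 0.24 for Dbp, 0.27 ± 0.15 for Per2, 0.16 ± 0.16 for Per3 and 0.09 ± 0.21 for Hlf on the log2 scale, and none passed. Arntl (-0.35 ± 0.33), Npas2 (-0.44 ± 0.33) and Clock (-0.16 ± 0.12) were likewise not called. Without the KO control females Arntl was at -0.69, Npas2 at -0.93 and Clock at -0.28 (edgeR adjusted p = 0.412, 0.130 and 0.295), again not called. Npas2 and Clock then had an edgeR unadjusted p under 0.05, as did Per2 (0.40) among these outputs. In the fit of all libraries, the 3 called genes of 10 stand beside 562 of all 16316 genes called higher in males, 3.44%, and 860 called in either direction, 5.27%. Group by group, Per1 separated the sexes in KO AngII mice (198, 216 and 190 CPM in males against 80.3, 71.6 and 109 CPM in females), in KO controls (165, 109 and 119 CPM against 25.5, 89.2 and 84.8 CPM) and in WT AngII mice (153, 238 and 237 CPM against 74.0, 70.9 and 67.7 CPM). In WT controls it did not, with 264, 42.9 and 64.7 CPM in males and 128, 126 and 51.7 CPM in females. How many of all genes separate the sexes within a group was not counted.

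**Figure D5:**
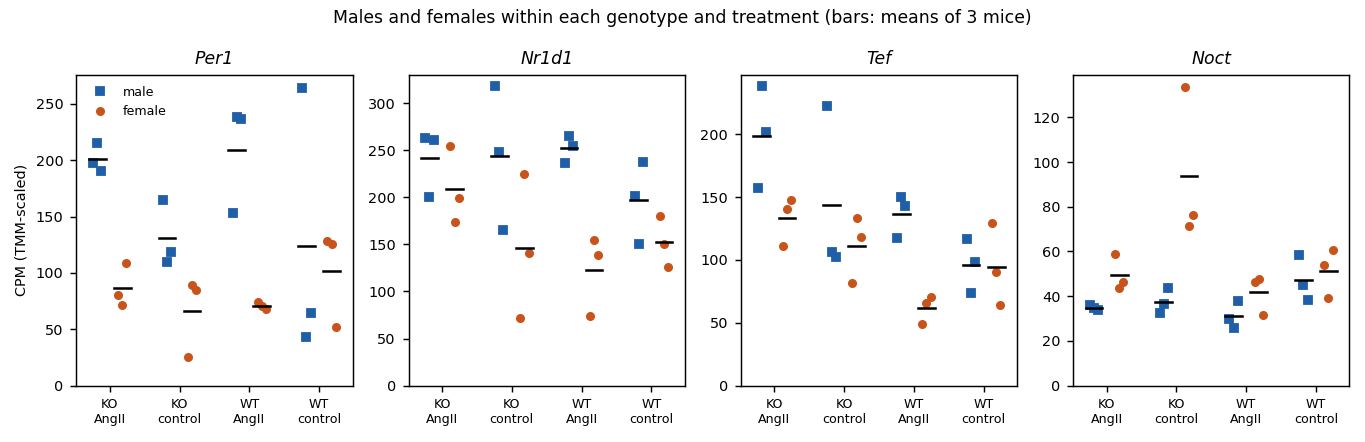
The y axis is TMM-scaled CPM and the x axis genotype and treatment. Males are squares left of females as circles, and bars are the mean of 3 libraries. Male values of Per1 lie above female values in every group except WT controls, where the ranges cross (42.9 to 264 CPM in males, 51.7 to 128 CPM in females).

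Per1 was called without the KO control females (1.03, edgeR adjusted p = 0.0320) and in all 32 alternatives computed for this contrast. Without the KO control females Nr1d1 (0.55, adjusted p = 0.0764) and Tef (0.59, adjusted p = 0.0740) missed the threshold of the same edgeR test. Both also missed it when WT control female replicate 3 was omitted, and Tef when WT control male replicate 1, WT AngII male replicate 2, KO control male replicate 1 or KO AngII male replicate 2 was. Several library measures also differed with sex. Ribosomal and other small structural RNA took 16.9 to 40.1% of counts in males (median 32.2%), against 2.51 to 40.3% in females (median 17.8%). Receptor genes took 111 to 583 CPM of protein-coding counts in males and 203 to 1992 CPM in females. The 6 smooth muscle markers summed to 12975 to 20590 CPM in males (median 18503), against 6673 to 18243 CPM in females (median 14199), and all 6 were higher in males, with Acta2 and Smtn called. Without the KO control females neither was (Acta2 0.55, Smtn 0.32 on the log2 scale). Their part in the sex difference was not tested.

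Of 21 further clock genes listed beside the members, 19 were measured and tested. Between sexes 8 were higher and 11 lower in males, and 1 of 19 passed, a share near the 5.27% of all genes called between sexes. It was Noct (nocturnin, a rhythmic phosphatase also named Ccrn4l). Noct ran from 25.8 over 36.2 to 58.3 CPM in males, against 31.7, 50.7 and 134 CPM in females, a log2 fold change of -0.59 ± 0.14 (edgeR adjusted p = 0.00996). The highest value was a KO control female, and without those 3 libraries the log2 fold change was -0.35 (edgeR adjusted p = 0.268). Between KO and WT under AngII, 10 of the 19 were higher, 9 lower and none called, with a median log2 fold change of 0.04. Bhlhe41, a repressor of E-box genes, ran from 44.4 over 60.4 to 96.5 CPM in KO AngII mice, against 8.51, 34.0 and 51.0 CPM in WT AngII mice (1.09 ± 0.27, edgeR adjusted p = 0.0710). It was named because its pattern was most like that of Dbp. Among the most abundant listed genes, Nr1d2, a paralog of Nr1d1, changed by 0.45 ± 0.22, Nampt, an NAD-producing enzyme, by -0.04 ± 0.28, and the kinase Csnk1d by -0.13 ± 0.22 on the log2 scale, and none was called.

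Likeness was measured as Pearson r of log2 CPM over the 24 libraries among 5765 genes whose average log2 CPM was 4 or more, and genes with only a systematic name were passed over. The genes most like Dbp were Bhlhe41 (r = 0.855), Tcap (0.811), Bhlhe40 (0.707), Cys1 (0.700) and Nr1d2 (0.699), of which Bhlhe41, Bhlhe40 and Nr1d2 are in the clock list. The genes least like Dbp were Cyth1 (-0.671), Kif3a (-0.644), Zfc3h1 (-0.632), Zfp462 (-0.631) and Rbm39 (-0.609). Among the highest for Arntl were Nolc1 (0.774), Rapgef2 (0.716), Aff1 (0.686) and Snrpn (0.684). The lowest named genes for Arntl, with 1 systematic name passed over before Cpeb1, were Bhlhe41 (-0.778), Cys1 (-0.733), Tcap (-0.730), Cpeb1 (-0.635) and Cdh6 (-0.612), so that 3 names stood at opposite ends of the Arntl and Dbp lists. For deviations from group means, r with Arntl was -0.405 for Bhlhe41, -0.577 for Cys1 and -0.439 for Tcap. With Dbp it was 0.819, 0.539 and 0.671. The first r therefore also holds the differences between groups by which the members were chosen. For Per1, after 1 systematic name at the top, the highest were Tenc1 (0.864), Scaf1 (0.844), Ctdsp1 (0.837), Eif5a (0.832) and Axl (0.831), and none of these 5 is in the clock list.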

How the data were processed

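Whole-number counts per gene were deposited by the authors for 24 aorta libraries. Per the submitters' processing notes, cutadapt 1.8.1, TopHat2 2.0.14, Bowtie2 2.2.5 and featureCounts 1.4.6 were used with mm10; their settings and strandedness are not given in the sources used here. Without stated strandedness, reads from the exon overlaps of Dbp with Sphk2 (539 bases), Nr1d1 with Thra (263), Tef with Gm17597 (193) and Arntl with Gm45355 (33) cannot be assigned to 1 gene. Gene positions and lengths came from GENCODE M21, where 40254 of 41128 identifiers matched, and 6547 of the genes were not measured here, including Rora and Usp2 of the clock list.

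Per the labels' protocols, RNA was depleted of ribosomal RNA. In edgeR 4.0.16 the counts of 16316 genes passing filterByExpr (minimum count 10, total 15) were TMM-scaled and fitted with 8 group coefficients over all 24 libraries. Contrasts average both sexes, p-values were Benjamini-Hochberg adjusted over all genes tested, and an adjusted p under 0.05 is a call. CPM are TMM-scaled, and log2 CPM use a prior count of 2. DESeq2 1.42.0, other scalings, filters and sample sets were alternatives. The procedure was also tested on simulated data.

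The members and gene lists were chosen with earlier results of these data known. Named genes were all members, listed clock genes that were called or among the 4 most abundant, and the 5 most alike. Some genes that this rule names are not reported here. The labels number the samples of a group without saying that each is a separate animal, so p-values measure the spread between these samples.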

Additional observations from a re-analysis of the deposited data

Results flagged for a closer look

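Tef in KO control mice had 1 value far from the others, 222.2 CPM in male replicate 1, with the next highest at 133 CPM. It was 1 of 40 sets of 6 values examined, and chance gives about 1 in 20.

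The Arntl response to AngII differed in direction between WT males and WT females. The difference, males minus females, was -2.07 on the log2 scale (-2.0651), and every WT AngII male lay below every WT control male while every WT AngII female lay above every WT control female. In edgeR's fit the unadjusted p was 0.0292 and the adjusted p over all genes near 1. The same difference in KO mice was -1.57 ± 0.99 (edgeR unadjusted p = 0.122). The share of all genes that separates WT AngII from WT control within a sex was not counted.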

How the results depend on the processing

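The number of clock genes called between KO and WT under AngII was 1, and moved to 2 with RLE size factors, 5 without a count filter, 3 with 50 counts in 3 libraries, 3 with only the groups compared and 5 with DESeq2. It was 0 in females only and 0 in males only, 2 without the KO control females, 2 without KO control female replicates 1 and 3 (chosen after seeing the data) and 0 to 2 with 1 replicate left out. Between KO and WT controls it was 0, moved to 1 without a count filter (Npas2) and was 0 to 2 with 1 replicate left out. Between males and females it was 3, and 1 without the KO control females, 1 without their replicates 1 and 3, and 1 to 3 with 1 replicate left out, with 1 (Per1) without WT control female replicate 3. For AngII in KO, AngII in WT and their difference it was 0 throughout. Of the uncalled sex values, 2 changed sign, Npas2 to 0.12 without KO control female replicate 2 (range -0.67 to 0.12 with 1 replicate left out) and Hlf to -0.080 without KO control male replicate 1 (range -0.080 to 0.31).

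Hlf was called between genotypes under AngII in 30 of 35 alternatives and Arntl in 14 of 35. Over all genes, calls between KO and WT ranged over 35 to 72 under AngII and over 13 to 399 in controls with 1 replicate left out, the 399 without KO control female replicate 2, while AngII in WT gave 5 to 86, AngII in KO 0 to 113 and sex 605 to 1562. Without the KO control females sex gave 166. The cause was not tested.

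Deviations of same-numbered replicates of different groups had a mean r of 0.015 (84 pairs, 19 above 0.1), against -0.007 for other pairs. Outside their group, 11 of 24 libraries were most like one of their own number. The number expected without any pairing was not computed. With the replicate number as a block the clock genes called were 1 between genotypes under AngII and 3 between sexes. Shallow libraries limit Arntl and Npas2 most, at medians of 43 and 65.5 counts.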

Other observations

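Immediate early and glucocorticoid-responsive genes were compared between the sexes. Of 10 immediate early genes, which are switched on within minutes of cell stimulation, 10 had positive log2 fold changes, male over female, and 2 were called, Junb (log2 fold change 1.14 ± 0.34, edgeR adjusted p = 0.0415) and Egr3 (2.49 ± 0.58, edgeR adjusted p = 0.00962). Of 8 measured glucocorticoid-responsive genes, 8 had positive log2 fold changes and 2 were called, the metallothioneins Mt1 (0.95 ± 0.22, edgeR adjusted p = 0.00910) and Mt2 (2.15 ± 0.65, edgeR adjusted p = 0.0443). The median log2 fold changes were 0.70 and 0.47, beside -0.05 over all genes tested, and 3.44% of all genes were called higher in males. Without the KO control females the same 10 and 8 were positive, the medians were 0.64 and 0.43, and none was called by edgeR, beside 1.11% of all genes; Junb was then at 1.00, Egr3 at 0.94, Mt1 at 0.83 and Mt2 at 1.38, each with an unadjusted p under 0.05. Those 3 libraries had low sums, 110 to 260 CPM for the immediate early and 155 to 280 CPM for the glucocorticoid list. Summed CPM of the immediate early list ran from 207 over 323 to 1047 in males, against 110, 206 and 462 in females, so the sexes overlapped.

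Nfil3, which binds D-boxes and opposes Dbp, was scarce. It ran from 0 over 1.03 to 10.6 CPM in KO AngII mice, against 2.47, 5.38 and 10.8 CPM in WT AngII mice, and from 0 over 1.04 to 6.80 CPM in KO controls, against 2.56, 6.04 and 11.2 CPM in WT controls. Its log2 fold change was -1.77 ± 0.80 under AngII and -2.56 ± 0.88 in controls (edgeR adjusted p = 0.582 and 0.268). Nfil3 was chosen after its values were seen.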
